A study of Mus musculus with 14 samples.

Results

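This account covers 55 genes that carry cells from the end of G2 through mitosis and cytokinesis, out of 24015 gene symbols in the count table. The genes were taken by symbol from a named list, chosen with earlier results of these data known, and their rows were read in every library. All 55 were present, and all 55 passed the filter on low counts. The study is an RNA sequencing experiment on mouse embryonic fibroblasts, connective-tissue cells grown out of the embryo, here of strain 129s2, from embryos of day 14.5 and at passages 3 to 4. Cells were wild type or SirT7-/-, lacking a NAD-dependent sirtuin deacylase, and were kept for 18 h in normal medium or in medium without glucose. Wild-type cells gave 4 libraries from normal medium (WT-NT) and 3 from glucose-free medium (WT-GS), and SirT7-/- cells likewise gave 4 (KO-NT) and 3 (KO-GS). The series' title names the question of how SirT7 bears on the response to glucose starvation. The labels do not say whether replicates came from separate embryos or cultures, so p-values measure the spread between these libraries, which may be technical.

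As background, entry into mitosis is driven by the kinase Cdk1 bound to cyclin A2 or cyclin B, which the Cdc25 phosphatases switch on. Plk1 and the Aurora kinases then build the spindle, and the spindle checkpoint holds the anaphase-promoting complex (APC/C) in check until all kinetochores are attached. Cdc20 then activates the APC/C, securin and cyclin B are destroyed, separase cuts cohesin, and the midzone proteins split the cell. Many of these genes share a promoter element, the cell-cycle homology region, through which the MuvB core holds them down in resting cells as part of the DREAM complex and raises them in G2 together with B-Myb and FoxM1. Their messages are high in cells in G2 and M and low in cells that have left the cycle. In bulk RNA, fewer cells in G2 and M and less message per cell cannot be told apart.

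Total counts ran from 59788270 to 91607861 per library, and levels are given as CPM, in which each library's total sets the scale after TMM normalization. Levels are not corrected for gene length and are compared only within a gene. Sirt7 lay at 17.4 to 22.9 CPM in the 7 wild-type libraries and at 0.291 to 1.45 CPM in the 7 SirT7-/- libraries, as the genotype labels state. All 13 fibroblast markers, Col1a1 and Pdgfra among them, were detected in every group. Libraries labelled KO-GS 3 and KO-NT 4 stood apart from their groups. In the library labelled KO-NT 4, 52 of the 55 genes lay below the lowest WT-NT library, and their median log2 ratio to the WT-NT mean was -1.07, against 0.19, 0.10 and 0.19 in KO-NT 1 to 3. In the library labelled KO-GS 3, 53 of the 55 lay within the WT-NT range, against 1 in KO-GS 1 and 8 in KO-GS 2. Its median log2 ratio was -0.20, against -1.31 and -0.68 in KO-GS 1 and 2. The count above the highest WT-GS library did not set it apart, at 53 against 1 in KO-GS 1 and 55 in KO-GS 2. Shares of all genes placed in these ways were not counted. Each library that stood apart was thus closer to the wild-type levels of the other medium for these genes. The cause was not tested, and results that rest on these libraries are given with and without them. Their removal was chosen after seeing the data, including the levels of these 55 genes.

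**Figure D1:**
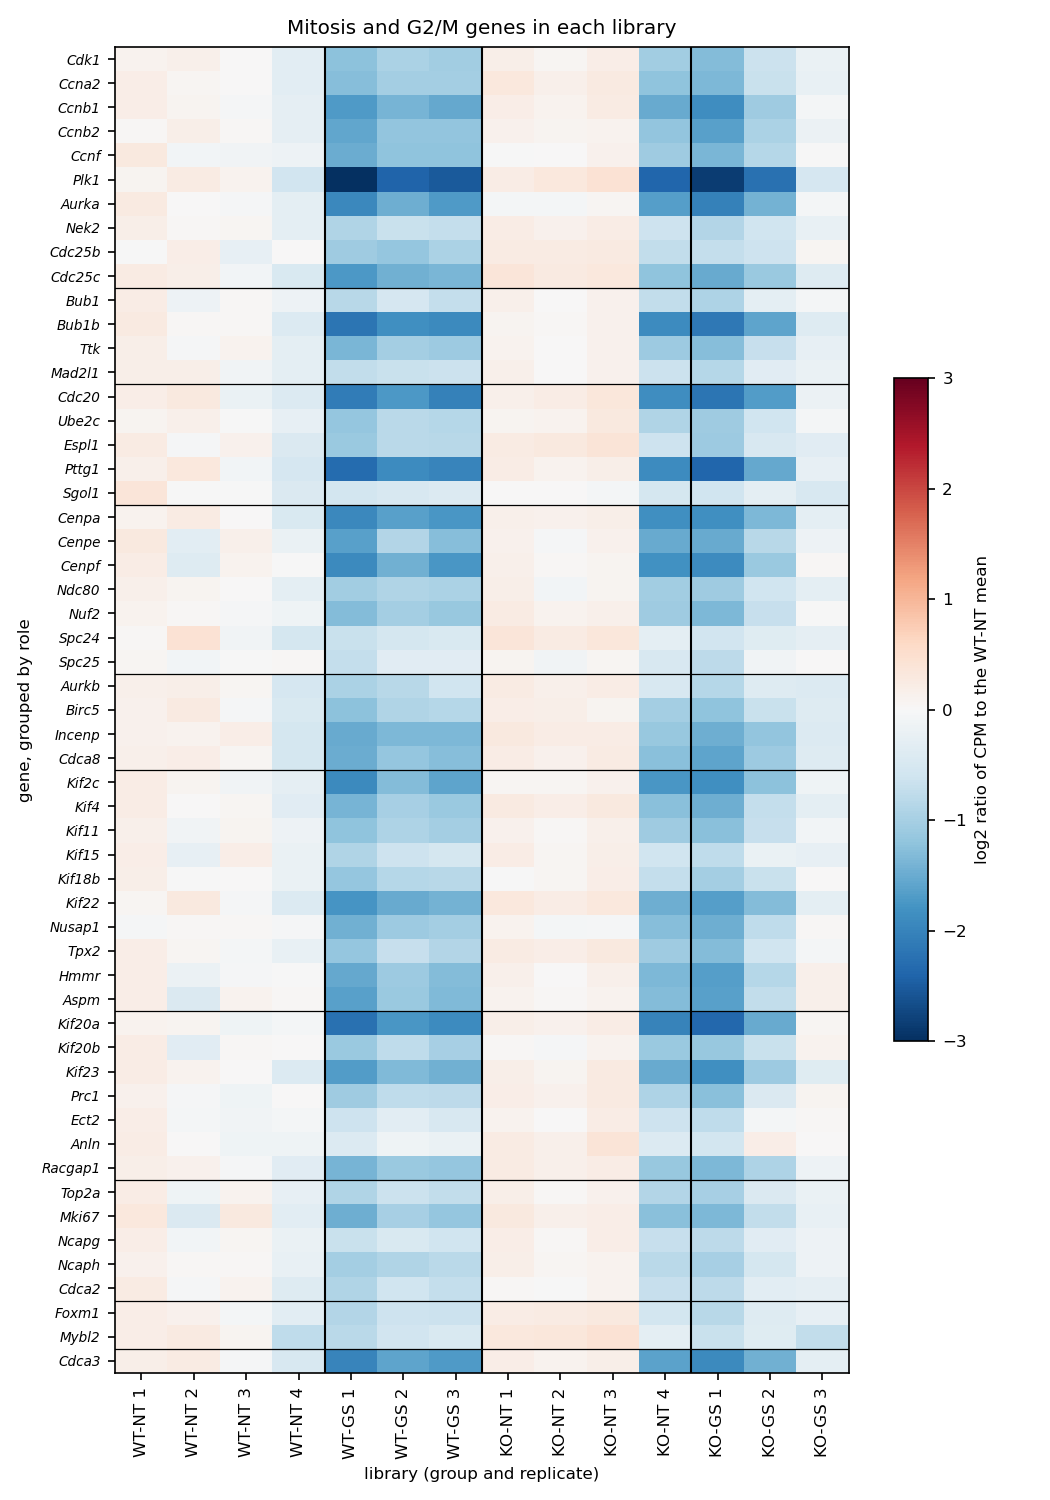
Log2 ratio of each gene's CPM to its mean in the WT-NT libraries (colour, red higher and blue lower), with the 55 genes in rows by role and the 14 libraries in columns. Blue fills WT-GS 1 to 3, KO-GS 1, the library labelled KO-NT 4 and, more weakly, KO-GS 2, while the library labelled KO-GS 3 is near the WT-NT level, with a median of -0.20.

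In wild-type cells glucose starvation lowered most of the mitotic genes and raised none. Of the 55 genes, 46 were called lower and 0 higher at an adjusted p under 0.05 (edgeR's quasi-likelihood F-test, Benjamini-Hochberg adjustment over 15666 genes). An unadjusted p under 0.05 was found for 54 of them, against 6812 of all 15666 genes. Among all genes tested, 13.1% were called lower and 12.9% higher. The median log2 change of the 55 was -1.10, against -0.04 over all genes tested, and single genes ran from -2.62 for Plk1 to -0.24 for Anln. The WT-NT and WT-GS libraries did not overlap for 52 genes, all lower in WT-GS, against 22.1% of all genes that were lower without overlap. The genes with overlap were Sgol1, Spc24 and Mybl2. The sign of all 55 was negative under every alternative setting and with any library left out. The calls depended on which libraries entered the fit: with all other libraries in the fit, 0 of the 55 were called when WT-NT 3 or any of WT-GS 1, WT-GS 2 and WT-GS 3 was left out, 5 when it was WT-NT 1 and 21 when it was WT-NT 2. Over all genes, leaving out WT-GS 3 gave 1 call, and leaving out WT-NT 3 or either other WT-GS library gave 0. In a fit on wild-type libraries alone, chosen after seeing the data, 46 to 54 were called with any of the 7 left out. These limits hold for each wild-type call given below.

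In SirT7-/- cells, with libraries as labelled, 0 of the 55 genes were called in either direction, against 0% of all genes tested. All 55 log2 changes were negative, with a median of -0.57 against 0.01 over all genes tested. Of the 55, 14 had an unadjusted p under 0.05, against 2919 of all 15666 genes. The smallest adjusted p was 0.227, both among the 55 and over all genes. DESeq2 called 0 of the 55 and 201 of all genes. Without the libraries labelled KO-GS 3 and KO-NT 4, 51 of the 55 were called lower and 0 higher, against 14.5% of all 15864 genes lower and 18.6% higher, and the median log2 change was -1.05. The KO-NT and KO-GS libraries then did not overlap for 54 genes, all but Anln, against 32.2% of all genes that were lower without overlap. The libraries left out had been singled out by these same 55 genes, so these counts are not independent support for a fall. The wild-type count in that fit was 52 lower, against 19.1% of all genes, with a median of -1.08. Leaving out the library labelled KO-NT 4 alone gave 37 genes called lower in SirT7-/- cells, and leaving out the library labelled KO-GS 3 alone gave 0. In what follows, the change in SirT7-/- cells is given as labelled and then without both libraries.

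The kinases, cyclins and phosphatases of mitotic entry all fell in wild-type cells. All 10 were called lower, with log2 changes from -2.62 to -0.76, adjusted p from 0.0245 to 0.0343 and no overlap between WT-NT and WT-GS. Plk1, the polo-like kinase of centrosomes, spindle and cytokinesis, read 49.2, 55.6, 50.3 and 31.3 CPM in WT-NT 1 to 4, 5.86, 8.79 and 8.09 CPM in WT-GS 1 to 3, 54.6, 58.3, 63.4 and 8.91 CPM in KO-NT 1 to 4, and 6.48, 9.92 and 33.1 CPM in KO-GS 1 to 3. The WT-GS libraries lay at 8.79 CPM or less against 31.3 CPM or more in WT-NT, and the library labelled KO-NT 4 lay next to the starved ones. The change was -2.62 on the log2 scale in wild type (SE 0.66, adjusted p = 0.0246), and in SirT7-/- it was -1.49 (SE 0.62, adjusted p = 0.248) as labelled and -2.81 (SE 0.29, adjusted p = 0.000105) without both libraries. Cdk1, the mitotic cyclin-dependent kinase, read 96.6, 99.7, 89.6 and 71.5 CPM in WT-NT 1 to 4, 38.1, 46.3 and 43.7 CPM in WT-GS 1 to 3, 101, 92.5, 103 and 43.7 CPM in KO-NT 1 to 4, and 36.01, 56.96 and 78.03 CPM in KO-GS 1 to 3. Its wild-type groups were apart, and KO-GS 2 lay between them. The wild-type log2 change was -1.06 (SE 0.29, adjusted p = 0.0278). Ccnb1, encoding cyclin B1, read 102, 93.5, 86.5 and 73.7 CPM in WT-NT 1 to 4, 27.4, 33.6 and 30.6 CPM in WT-GS 1 to 3, 103, 95.6, 106 and 31.3 CPM in KO-NT 1 to 4, and 24.3, 42.6 and 84.98 CPM in KO-GS 1 to 3. Ccna2, encoding cyclin A2, the partner of S phase and G2, read 112, 103, 98.7 and 79.1 CPM in WT-NT 1 to 4, 40.5, 48.6 and 48.9 CPM in WT-GS 1 to 3, 122, 109, 118 and 42.5 CPM in KO-NT 1 to 4, and 38.4, 61.8 and 84.99 CPM in KO-GS 1 to 3. The 3 wild-type starved libraries were low for both cyclins, with log2 changes of -1.54 (SE 0.43) for Ccnb1 and -1.10 (SE 0.33) for Ccna2. Ccnb2 lay at 32.9 to 44.6 CPM in WT-NT and 13.4 to 17.5 CPM in WT-GS, and Ccnf, whose cyclin F recruits substrates to a ubiquitin ligase and does not activate a kinase, at 31.03 to 41.97 CPM in WT-NT and 12.2 to 14.9 CPM in WT-GS.

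Cdc25b, a phosphatase that activates Cdk1, read 36.1, 41.8, 30.6 and 36.7 CPM in WT-NT 1 to 4, 17.2, 16.2 and 18.9 CPM in WT-GS 1 to 3, 43.1, 42.7, 43.5 and 21.9 CPM in KO-NT 1 to 4, and 22.1, 23.6 and 37.9 CPM in KO-GS 1 to 3. It fell by 1.06 on the log2 scale in wild type (SE 0.25, adjusted p = 0.0245). The KO-GS libraries all lay above the WT-GS libraries, at 22.1 CPM or more against 18.9 CPM or less. Cdc25c, its relative, lay at 8.95 to 14.6 CPM in WT-NT and 3.73 to 4.76 CPM in WT-GS. Aurka, the Aurora kinase of centrosomes and spindle poles, read 53.3, 44.98, 43.4 and 36.6 CPM in WT-NT 1 to 4, 11.7, 16.2 and 13.7 CPM in WT-GS 1 to 3, 42.9, 43.1, 46.5 and 14.3 CPM in KO-NT 1 to 4, and 10.96, 16.8 and 42.7 CPM in KO-GS 1 to 3. The WT-GS libraries did not overlap the WT-NT libraries, and the library labelled KO-GS 3 lay inside the WT-NT range. Aurka changed by -1.68 (SE 0.46) in wild type. Nek2, a kinase of centrosome separation, had the smallest change of the 10 and lay at 24.9 to 34.3 CPM in WT-NT and 16.2 to 19.2 CPM in WT-GS. In SirT7-/- cells the 10 genes had a median log2 change of -0.65 as labelled and of -1.25 without both libraries, where all 10 were called lower.

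**Figure D2:**
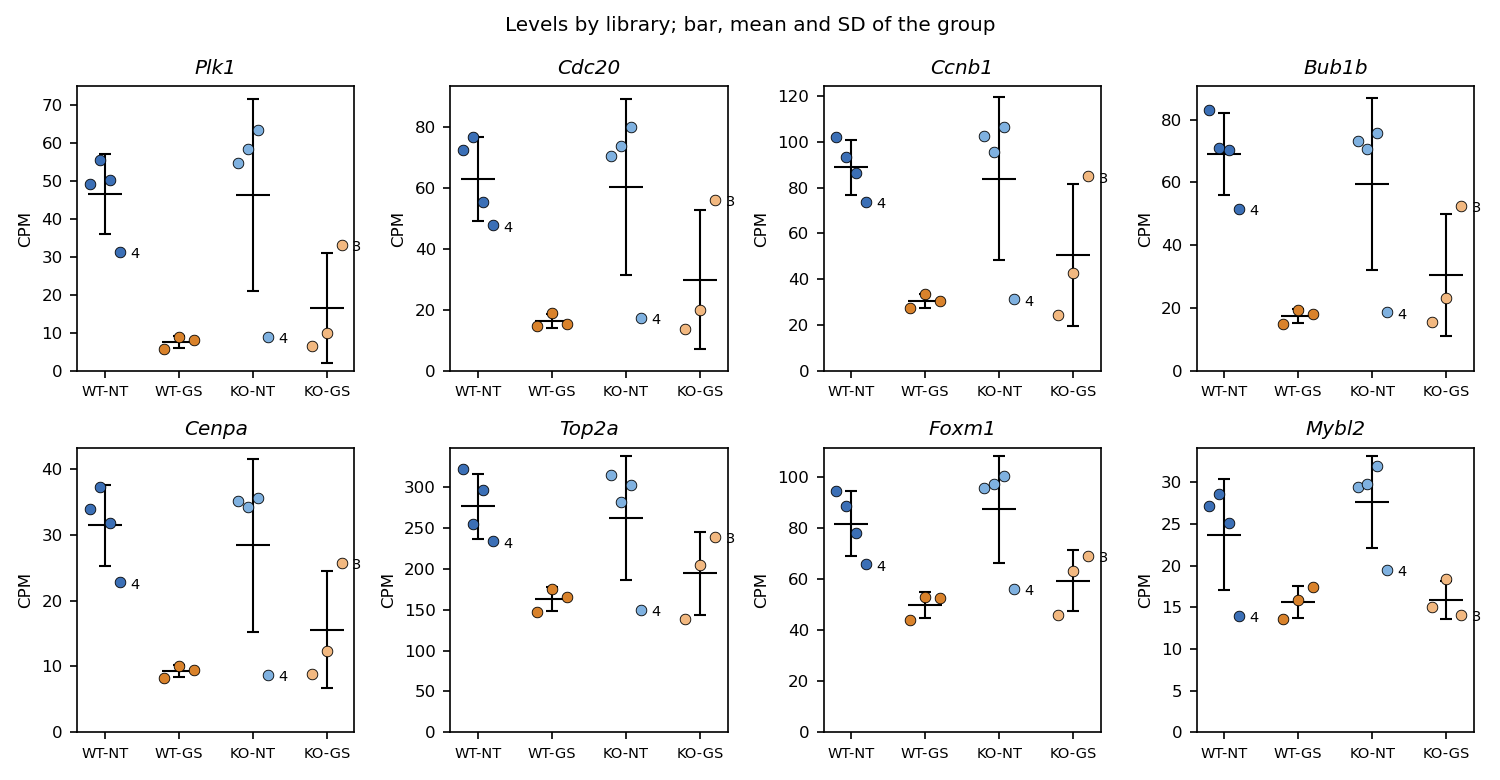
CPM of 8 genes in each library (points, by group), with the group mean and SD (bars) and labels on the libraries WT-NT 4, KO-NT 4 and KO-GS 3. For Plk1 the library labelled KO-NT 4 sits at 8.91 CPM among the starved libraries and the library labelled KO-GS 3 at 33.1 CPM with the normal-medium ones, while for Mybl2 WT-NT 4 also sits at a starved level, 13.98 CPM.

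All 4 genes of the spindle checkpoint, which delays anaphase while a kinetochore is unattached, were called lower in wild type, with log2 changes from -1.98 to -0.68. Bub1b, encoding the BubR1 protein of the mitotic checkpoint complex, read 83.1, 71.02, 70.4 and 51.5 CPM in WT-NT 1 to 4, 15.1, 19.3 and 18.3 CPM in WT-GS 1 to 3, 73.05, 70.6, 75.9 and 18.6 CPM in KO-NT 1 to 4, and 15.6, 23.2 and 52.5 CPM in KO-GS 1 to 3. Mad2l1, encoding Mad2, the protein that captures Cdc20 at the checkpoint, read 51.2, 50.6, 41.6 and 36.8 CPM in WT-NT 1 to 4, 26.99, 28.6 and 28.7 CPM in WT-GS 1 to 3, 49.9, 45.7, 49.2 and 28.8 CPM in KO-NT 1 to 4, and 24.8, 35.6 and 39.3 CPM in KO-GS 1 to 3. Both were low in each starved wild-type library, and the size of the fall differed: -1.98 (SE 0.48, adjusted p = 0.0245) for Bub1b and -0.68 (SE 0.20, adjusted p = 0.0334) for Mad2l1 on the log2 scale, a difference between genes that was not tested. Bub1, a checkpoint kinase of the kinetochore, lay at 39.9 to 51.8 CPM in WT-NT and 24.7 to 31.1 CPM in WT-GS, and Ttk, the kinase that starts checkpoint signalling, at 23.3 to 32.2 CPM in WT-NT and 10.95 to 13.98 CPM in WT-GS. In SirT7-/- cells without both libraries all 4 were called lower, Bub1b by -1.88 (SE 0.22, adjusted p = 0.000212) and Mad2l1 by -0.64 (SE 0.18, adjusted p = 0.0175).

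Among the genes that start anaphase, 4 of 5 were called lower in wild type. Cdc20, the activator of the APC/C, read 72.3, 76.7, 55.3 and 47.8 CPM in WT-NT 1 to 4, 14.8, 19.1 and 15.5 CPM in WT-GS 1 to 3, 70.5, 73.9, 79.9 and 17.4 CPM in KO-NT 1 to 4, and 13.9, 19.8 and 56.1 CPM in KO-GS 1 to 3. Pttg1, encoding securin, the inhibitor of separase, read 25.8, 28.98, 21.9 and 16.4 CPM in WT-NT 1 to 4, 4.73, 6.32 and 5.87 CPM in WT-GS 1 to 3, 27.1, 25.1, 26.5 and 6.28 CPM in KO-NT 1 to 4, and 4.48, 8.06 and 19.6 CPM in KO-GS 1 to 3. For both genes each starved wild-type library lay below every normal-medium library but the one labelled KO-NT 4, and WT-NT 4 was the lowest WT-NT library. Pttg1 had the second most negative change of the 55, with log2 change -2.05, SE 0.53, adjusted p = 0.0251, and Cdc20 changed by -1.94 (SE 0.53, adjusted p = 0.0275). Without both libraries the SirT7-/- changes were -2.03 (SE 0.29) and -2.12 (SE 0.24). Ube2c, the conjugating enzyme of the APC/C, lay at 34.7 to 45.3 CPM in WT-NT and 18.4 to 23.2 CPM in WT-GS, and Espl1, encoding separase itself, at 30.1 to 48.02 CPM in WT-NT and 18.6 to 23.02 CPM in WT-GS. Sgol1, encoding shugoshin, which guards cohesin at the centromere, was not called: it lay at 16.9 to 29.4 CPM in WT-NT and 15.7 to 17.3 CPM in WT-GS, with log2 change -0.48, SE 0.18, adjusted p = 0.0591, and its starved libraries overlapped WT-NT 4.

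Of 7 kinetochore and centromere genes, 5 were called lower in wild type. Cenpa, the histone variant that marks the centromere, read 33.8, 37.2, 31.8 and 22.8 CPM in WT-NT 1 to 4, 8.27, 10.1 and 9.40 CPM in WT-GS 1 to 3, 35.1, 34.1, 35.6 and 8.77 CPM in KO-NT 1 to 4, and 8.82, 12.3 and 25.7 CPM in KO-GS 1 to 3. Cenpe, a kinesin that moves chromosomes to the spindle equator, read 110.2, 72.7, 99.6 and 78.8 CPM in WT-NT 1 to 4, 28.99, 49.1 and 37.3 CPM in WT-GS 1 to 3, 98.7, 88.3, 98.4 and 31.5 CPM in KO-NT 1 to 4, and 31.5, 51.1 and 81.7 CPM in KO-GS 1 to 3. Starved wild-type libraries lay below all WT-NT libraries for both, with log2 changes of -1.76 (SE 0.46, adjusted p = 0.0249) and -1.23 (SE 0.39, adjusted p = 0.0394). Cenpf, a large kinetochore protein, lay at 55.3 to 84.03 CPM in WT-NT and 19.3 to 26.5 CPM in WT-GS. The subunits of the Ndc80 complex, which ties the kinetochore to microtubules, differed in whether they passed the test. Ndc80 read 36.04, 34.2, 32.8 and 26.2 CPM in WT-NT 1 to 4, 15.7, 17.4 and 16.6 CPM in WT-GS 1 to 3, 36.4, 30.7, 33.99 and 15.8 CPM in KO-NT 1 to 4, and 15.3, 21.3 and 26.5 CPM in KO-GS 1 to 3, and Nuf2 lay at 33.7 to 39.4 CPM in WT-NT and 14.9 to 18.1 CPM in WT-GS. Both were called lower, with log2 changes of -0.96 (SE 0.26) and -1.15 (SE 0.32). Spc24 lay at 8.27 to 16.2 CPM in WT-NT and 7.56 to 8.78 CPM in WT-GS and Spc25 at 26.7 to 29.7 CPM in WT-NT and 17.3 to 22.4 CPM in WT-GS. Neither was called, with adjusted p = 0.0738 and 0.08, and the difference between the subunits was not tested.

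All 4 genes of the chromosomal passenger complex, which corrects faulty attachments and then directs cleavage, were called lower in wild type, with log2 changes from -1.40 for Incenp to -0.78 for Aurkb. Aurkb, the kinase of the complex, read 36.1, 36.99, 34.1 and 22.97 CPM in WT-NT 1 to 4, 16.8, 18.4 and 21.5 CPM in WT-GS 1 to 3, 38.4, 35.97, 37.8 and 23.2 CPM in KO-NT 1 to 4, and 17.9, 24.8 and 24.5 CPM in KO-GS 1 to 3. Birc5, encoding survivin, which anchors the complex at the centromere, read 56.2, 61.3, 49.6 and 37.1 CPM in WT-NT 1 to 4, 21.9, 27.3 and 28.3 CPM in WT-GS 1 to 3, 59.1, 57.7, 54.2 and 25.003 CPM in KO-NT 1 to 4, and 22.1, 32.3 and 39.3 CPM in KO-GS 1 to 3. For both genes WT-NT 4 and the library labelled KO-GS 3 lay close together, between the other WT-NT libraries and the WT-GS libraries. The tests gave log2 change -0.78, SE 0.21, adjusted p = 0.0263 for Aurkb and log2 change -0.98, SE 0.29, adjusted p = 0.0321 for Birc5. Incenp, the scaffold of the complex, lay at 48.5 to 80.8 CPM in WT-NT and 24.5 to 27.6 CPM in WT-GS, and Cdca8, encoding borealin, at 26.5 to 44.2 CPM in WT-NT and 13.7 to 17.1 CPM in WT-GS. As labelled, the 4 genes had adjusted p from 0.228 to 0.257 in SirT7-/- cells, and without both libraries all 4 were called lower with a median log2 change of -1.26.

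All 10 spindle motors and microtubule factors were lower in wild type without overlap between WT-NT and WT-GS, and 9 of 10 were called lower. Kif11, the kinesin that pushes spindle poles apart, read 62.4, 52.5, 59.2 and 50.4 CPM in WT-NT 1 to 4, 24.2, 29.7 and 27.9 CPM in WT-GS 1 to 3, 61.5, 57.1, 62.8 and 26.996 CPM in KO-NT 1 to 4, and 23.6, 34.5 and 52.6 CPM in KO-GS 1 to 3. The WT-GS libraries lay at 29.7 CPM or less and the WT-NT libraries at 50.4 CPM or more, with log2 change -1.04, SE 0.29, adjusted p = 0.0287. Kif2c, a kinesin that takes microtubules apart, had the most negative change of the 10 at -1.58 and lay at 35.7 to 50.7 CPM in WT-NT and 11.5 to 17.5 CPM in WT-GS. Kif22, a chromosome-arm kinesin, lay at 31.5 to 51.1 CPM in WT-NT and 12.2 to 15.7 CPM in WT-GS. Kif4, another chromosome-bound kinesin, lay at 35.6 to 52.8 CPM in WT-NT and 17.3 to 22.8 CPM in WT-GS. These motors were called lower, and none had a WT-GS library within its WT-NT range. Kif15, which backs up Kif11, changed least of the 10, at -0.68, from 26.3 to 35.7 CPM in WT-NT and 16.6 to 21.7 CPM in WT-GS. Kif18b, which trims astral microtubules, lay at 22.5 to 28.9 CPM in WT-NT and 11.5 to 14.4 CPM in WT-GS. Nusap1, a microtubule-bundling protein, lay at 31.7 to 33.4 CPM in WT-NT and 11.98 to 15.98 CPM in WT-GS. All of these were likewise called lower. Hmmr and Aspm, a pair of spindle-pole factors, lay at 61.03 to 78.7 CPM in WT-NT and 23.6 to 31.997 CPM in WT-GS for Hmmr and at 33.9 to 52.5 CPM in WT-NT and 14.8 to 21.2 CPM in WT-GS for Aspm. Tpx2, which activates Aurora A on the spindle, lay at 118 to 157 CPM in WT-NT and 61.7 to 84.6 CPM in WT-GS and was not called, with log2 change -0.90, SE 0.32, adjusted p = 0.056.

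Of the cytokinesis genes, 4 of 7 were called lower in wild type, with log2 changes from -1.95 to -0.24. Kif20a, the kinesin that carries the passenger complex to the midzone, read 109.6, 108, 93.95 and 98.8 CPM in WT-NT 1 to 4, 21.6, 30.7 and 27.5 CPM in WT-GS 1 to 3, 115, 112, 121 and 25.6 CPM in KO-NT 1 to 4, and 20.1, 35.9 and 106 CPM in KO-GS 1 to 3. Its starved wild-type libraries were far below all WT-NT libraries, and the library labelled KO-GS 3 lay within the WT-NT range. The tests gave log2 change -1.95, SE 0.56, adjusted p = 0.0307 in wild type, and in SirT7-/- cells -0.79 (adjusted p = 0.41) as labelled and -2.01 (adjusted p = 0.000172) without both libraries. Prc1, which bundles the midzone microtubules, read 114, 102, 95.1 and 106 CPM in WT-NT 1 to 4, 49.8, 61.2 and 60.1 CPM in WT-GS 1 to 3, 120.3, 113, 125 and 54.5 CPM in KO-NT 1 to 4, and 43.9, 77.7 and 111 CPM in KO-GS 1 to 3. Anln, encoding anillin, which organises the contractile ring, read 162, 139.8, 128 and 129 CPM in WT-NT 1 to 4, 105, 127 and 123 CPM in WT-GS 1 to 3, 166, 156, 183 and 106 CPM in KO-NT 1 to 4, and 95.5, 161 and 141 CPM in KO-GS 1 to 3. Prc1 did not overlap between WT-NT and WT-GS, yet it missed the threshold with log2 change -0.87, SE 0.30, adjusted p = 0.0501. Anln had the smallest change of all 55, with log2 change -0.24, SE 0.20, adjusted p = 0.357, and its highest WT-GS library lay just under the lowest WT-NT library, at 127 against 128 CPM. Kif23 and Racgap1, which together form centralspindlin, were called lower and lay at 45.4 to 69.5 CPM in WT-NT and 18.9 to 24.1 CPM in WT-GS for Kif23 and 80.3 to 114 CPM in WT-NT and 38.5 to 46.3 CPM in WT-GS for Racgap1. Kif20b, a further midzone kinesin, was called lower from 37.7 to 55.4 CPM in WT-NT and 21.8 to 27.9 CPM in WT-GS. Ect2, the exchange factor that switches on RhoA at the equator, lay at 46.3 to 56.7 CPM in WT-NT and 32.2 to 39.7 CPM in WT-GS and was not called (adjusted p = 0.103).

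In the group that shapes chromosomes 4 of 5 genes were called lower in wild type. Top2a, the topoisomerase that untangles sister chromatids, read 322, 254, 296 and 233 CPM in WT-NT 1 to 4, 147, 176 and 165 CPM in WT-GS 1 to 3, 314, 281, 302 and 149.7 CPM in KO-NT 1 to 4, and 139, 204 and 239 CPM in KO-GS 1 to 3. Mki67, encoding Ki-67, the coat of mitotic chromosomes and a marker of cycling cells, read 371, 221, 368 and 239 CPM in WT-NT 1 to 4, 109, 150.4 and 135 CPM in WT-GS 1 to 3, 369, 335, 346 and 125 CPM in KO-NT 1 to 4, and 118, 179.8 and 257 CPM in KO-GS 1 to 3. Ncapg, a subunit of condensin I, read 46.4, 37.9, 42.2 and 35.3 CPM in WT-NT 1 to 4, 25.3, 29.5 and 26.7 CPM in WT-GS 1 to 3, 46.2, 41.7, 46.3 and 25.2 CPM in KO-NT 1 to 4, and 23.4, 32.2 and 36.4 CPM in KO-GS 1 to 3. The WT-GS libraries lay below all WT-NT libraries for these genes, and WT-NT 2 and 4 were the low ones among the WT-NT libraries. Top2a changed by -0.76 (SE 0.24, adjusted p = 0.0394), Mki67 by -1.19 (SE 0.36, adjusted p = 0.0356), and Ncapg missed the threshold at -0.57 (SE 0.20, adjusted p = 0.0547). Ncaph, another condensin I subunit, lay at 32.7 to 41.6 CPM in WT-NT and 18.7 to 21.9 CPM in WT-GS, and Cdca2, which brings a phosphatase to chromatin at mitotic exit, at 22.1 to 33.9 CPM in WT-NT and 15.3 to 18.9 CPM in WT-GS. Without both libraries all 5 were called lower in SirT7-/- cells, with a median log2 change of -0.77. Cdca3, which promotes mitotic entry through the turnover of Wee1, was called lower in wild type by -1.75 (SE 0.44), from 31.5 to 52.4 CPM in WT-NT and 11.2 to 14.7 CPM in WT-GS.

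Of the 2 transcription factors of the programme, 1 passed the test in wild type. Foxm1, the forkhead factor of G2 genes, read 94.5, 88.8, 77.96 and 65.8 CPM in WT-NT 1 to 4, 44.1, 53.04 and 52.6 CPM in WT-GS 1 to 3, 95.6, 97.4, 100.4 and 56.2 CPM in KO-NT 1 to 4, and 46.1, 63.01 and 69.1 CPM in KO-GS 1 to 3. It was called lower in wild type, with log2 change -0.71, SE 0.21, adjusted p = 0.0311. Mybl2, encoding B-Myb, which joins the MuvB core in S phase, read 27.2, 28.6, 25.1 and 13.98 CPM in WT-NT 1 to 4, 13.6, 15.9 and 17.4 CPM in WT-GS 1 to 3, 29.4, 29.8, 31.9 and 19.5 CPM in KO-NT 1 to 4, and 15.03, 18.4 and 14.1 CPM in KO-GS 1 to 3. It was not called, with log2 change -0.60, SE 0.23, adjusted p = 0.0724. The WT-GS libraries overlapped WT-NT 4, which lay below KO-GS 1 and 2. Mybl2 was also the gene of the 55 whose KO-NT and KO-GS libraries, as labelled, did not overlap, at 19.5 CPM or more against 18.4 CPM or less, and 7.09% of all genes were lower without overlap in that comparison. The change in SirT7-/- was -0.80 (SE 0.24, adjusted p = 0.227) as labelled and -0.83 (SE 0.26, adjusted p = 0.033) without both libraries.

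Promoter windows, from 250 bases before to 50 after the transcript start in RefSeq on build GRCm38.p6, were at hand for 46 of the 55 genes, in 48 windows, Sgol1 under its RefSeq symbol Sgo1. Ccna2, Cdc25c, Spc24, Aurkb, Incenp, Tpx2, Kif20a, Cdca2 and Foxm1 had no window in the table. Each window was searched on both strands for TTTGAA, the core of the cell-cycle homology region that the MuvB protein Lin54 binds, for CCAAT, the box bound by NF-Y, and for GGCGGGA, an E2F-type site, with matches counted whether or not they shared bases with another motif. TTTGAA was present in 33 of the 46 genes (71.7%), against 20.2% of all 27025 genes with a window and 4 of 31 S phase genes (12.9%). With its first base within 50 bases before and 45 after the start, a span chosen after seeing the positions, it was present in 67.4% of the 46 genes, 5.72% of all genes and 6.45% of the S phase genes. CCAAT was present in 73.9%, 41.1% and 58.1%, and GGCGGGA in 23.9%, 12.7% and 35.5%. Both TTTGAA and CCAAT stood in 60.9% of the 46 genes and 8.97% of all genes. Neither stood in Mad2l1, Pttg1, Nuf2, Birc5, Nusap1, Ncaph and Mybl2. The median wild-type log2 change was -1.19 over the 33 genes with TTTGAA, from -2.62 to -0.24, and -0.98 over the 13 without it, from -2.05 to -0.48. The genes at both ends of the range, Plk1 and Anln, held a match, and Pttg1, next to Plk1 in the order of changes, held none in this window. A match is a string of letters and not a shown binding site.

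The stretches printed here run from 100 bases before to 25 after the start, 125 bases each, 5′ to 3′ on the gene's strand, with every match of the 3 motifs on either strand in capitals. They were chosen to show the element in genes of different roles, and Mybl2 and Pttg1 to show windows without it. Cdc20 is at chr4:118437319-118437443 (minus strand), Ccnb2 at chr9:70421530-70421654 (minus strand), Cdk1 at chr10:69352888-69353012 (minus strand), Cenpa at chr5:30666786-30666910 (plus strand), Hmmr at chr11:40733413-40733537 (minus strand), Kif23 at chr9:61946775-61946899 (minus strand), Mybl2 at chr2:163054535-163054659 (plus strand) and Pttg1 at chr11:43425957-43426081 (minus strand).
Cdc20: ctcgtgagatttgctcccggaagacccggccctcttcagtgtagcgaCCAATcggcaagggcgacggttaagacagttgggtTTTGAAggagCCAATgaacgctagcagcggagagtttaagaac
Ccnb2: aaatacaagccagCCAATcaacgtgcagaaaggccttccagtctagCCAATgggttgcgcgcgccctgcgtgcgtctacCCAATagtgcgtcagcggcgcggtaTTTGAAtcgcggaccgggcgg
Cdk1: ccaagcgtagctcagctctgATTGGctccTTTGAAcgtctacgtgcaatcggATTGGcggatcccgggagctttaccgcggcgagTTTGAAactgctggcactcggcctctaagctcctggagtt
Cenpa: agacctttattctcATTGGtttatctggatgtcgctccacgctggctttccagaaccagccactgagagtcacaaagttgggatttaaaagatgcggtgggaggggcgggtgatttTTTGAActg
Hmmr: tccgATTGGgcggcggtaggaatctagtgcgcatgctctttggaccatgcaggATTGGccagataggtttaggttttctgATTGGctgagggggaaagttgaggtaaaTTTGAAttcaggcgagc
Kif23: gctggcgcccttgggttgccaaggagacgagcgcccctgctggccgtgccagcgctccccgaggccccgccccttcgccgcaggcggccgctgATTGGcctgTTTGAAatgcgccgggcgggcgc
Mybl2: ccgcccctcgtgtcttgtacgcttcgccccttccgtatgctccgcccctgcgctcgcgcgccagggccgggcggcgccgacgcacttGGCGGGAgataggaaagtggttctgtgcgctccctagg
Pttg1: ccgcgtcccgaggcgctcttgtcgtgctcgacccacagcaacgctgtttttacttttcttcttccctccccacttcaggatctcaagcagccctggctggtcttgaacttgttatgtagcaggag

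**Figure D3:**
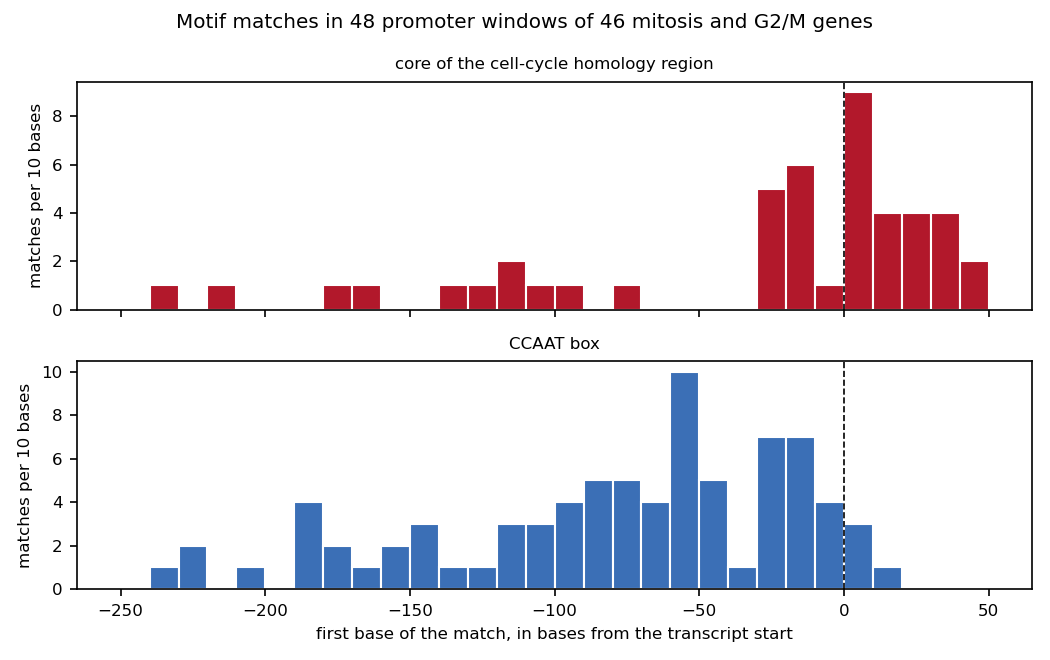
Position of each match of the cell-cycle homology core (upper panel) and of the CCAAT box (lower panel) in the 48 windows of 46 genes, as the first base of the match in bases from the transcript start (dashed line), counted in steps of 10 bases. Matches of the core gather around the start, where 67.4% of the 46 genes hold one within 50 bases before and 45 after it, while CCAAT boxes lie mostly before the start.

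Other genes of cell division, from lists written with earlier results of these data known, had medians nearer to 0. Over all genes tested, 13.1% were called lower and 12.9% higher in wild type, to be set beside each wild-type list count below. Of 40 further spindle and centrosome genes, 19 were called lower and 1 higher in wild type, with a median log2 change of -0.67. Troap, a spindle-associated protein, had the largest fall, from 14.1 ± 2.88 CPM (n = 4, SD) in WT-NT to 4.56 ± 0.881 CPM (n = 3, SD) in WT-GS, and the gene that rose was Haus2, a subunit of the augmin complex, from 29.9 ± 2.63 CPM (n = 4, SD) to 38.3 ± 1.38 CPM (n = 3, SD). Of 33 further kinetochore genes, 9 were called lower and 2 higher, with a median of -0.37. The genes that rose were Mis12, of the inner kinetochore complex of that name, from 40.8 ± 4.53 CPM (n = 4, SD) to 63.4 ± 3.15 CPM (n = 3, SD), and Cenpc1, which binds centromeric nucleosomes, from 39.8 ± 4.09 CPM (n = 4, SD) to 56.2 ± 0.221 CPM (n = 3, SD).

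Of 17 APC/C subunits and partners, 5 were called lower and 1 higher, with a median log2 change of -0.28. Fzr1, the activator that takes over from Cdc20 in late mitosis and G1, fell from 41.1 ± 7.04 CPM (n = 4, SD) to 19.3 ± 1.61 CPM (n = 3, SD), with log2 change -1.09, SE 0.22, adjusted p = 0.0245. Anapc2 (log2 change -0.47), Anapc5 (-0.35), Anapc11 (-0.65) and the conjugating enzyme Ube2s (-0.62) also fell, and the subunit Cdc27 rose by 0.32. Of 19 cohesin and condensin genes, 5 were called lower and 0 higher, with a median of -0.16. These were Sgol2, the other shugoshin (-1.31), the condensin subunits Ncapd2 (-1.19) and Smc4 (-0.71), Cdca5, encoding sororin (-0.75), and Pds5b (-0.48).

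Of 18 genes that restrain entry into mitosis or regulate those restraints, 2 were called lower and 0 higher, with a median of 0.00. Over all genes the shares were 13.1% lower and 12.9% higher. Pkmyt1, which inhibits Cdk1, fell from 10.4 ± 3.34 CPM (n = 4, SD) to 6.02 ± 0.817 CPM (n = 3, SD), and Cdc14a, a phosphatase, fell from 3.96 ± 0.770 CPM (n = 4, SD) to 2.55 ± 0.265 CPM (n = 3, SD). Without the libraries labelled KO-GS 3 and KO-NT 4 the count in wild type was 3 lower and 3 higher. Of all 15864 genes in that fit, 3037 were lower and 3243 higher. Of 12 genes listed for the DREAM complex, the MuvB core and their relatives, 1 was called lower and 3 higher, with a median of 0.06. Lin52, a MuvB subunit, read 8.39, 8.33, 8.44 and 9.06 CPM in WT-NT 1 to 4, 19.6, 17.1 and 17.3 CPM in WT-GS 1 to 3, 8.14, 7.54, 7.54 and 18.7 CPM in KO-NT 1 to 4, and 18.9, 15.9 and 9.30 CPM in KO-GS 1 to 3. The WT-GS libraries, KO-GS 1 and 2 and the library labelled KO-NT 4 were the high ones, with no overlap in wild type and log2 change 1.07, SE 0.31, adjusted p = 0.0309. Tfdp2, a partner of E2F factors, rose by 0.90 (SE 0.25, adjusted p = 0.0274), and Mybl1, a relative of Mybl2, by 0.98 (SE 0.31, adjusted p = 0.0382). Rbl1, encoding the pocket protein p107, fell by 0.47 on the log2 scale (adjusted p = 0.035). As labelled, 0 genes of these lists were called in SirT7-/- cells, and the medians there were -0.37 for the spindle and centrosome genes, -0.30 for the kinetochore genes and -0.20 for the APC/C genes. Without both libraries the SirT7-/- counts were 25 lower and 0 higher of 40 for the spindle and centrosome genes, 16 lower and 2 higher of 33 for the kinetochore genes, and 0 lower and 3 higher of 12 for the DREAM genes. Over all genes in that fit, 14.5% were called lower and 18.6% higher in SirT7-/- cells.

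S phase genes, which come before the mitotic ones in the cycle, were compared library by library. Of 40 such genes, 13 were called lower and 0 higher in wild type, against 13.1% and 12.9% of all genes, with a median log2 change of -0.43. Mcm5, a subunit of the replicative helicase, had the largest fall and read 99.6, 102, 94.5 and 51.9 CPM in WT-NT 1 to 4, 37.3, 39.6 and 43.996 CPM in WT-GS 1 to 3, 107, 102, 108 and 48.3 CPM in KO-NT 1 to 4, and 41.95, 48.99 and 56.2 CPM in KO-GS 1 to 3. For Mcm5, WT-NT 4 lay nearer to the WT-GS libraries than to WT-NT 1 to 3. In WT-NT 4 the 40 S phase genes had a median log2 ratio to the WT-NT mean of -0.42, within the range of WT-GS 1 to 3 (-0.50, -0.49 and -0.36), while the 55 mitotic genes had -0.28 there against -1.28, -0.99 and -1.03. The library labelled KO-GS 3 had a like pair of medians, -0.35 for the S phase genes and -0.20 for the mitotic genes. In the library labelled KO-NT 4 they were -0.32 and -1.07.

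**Figure D4:**
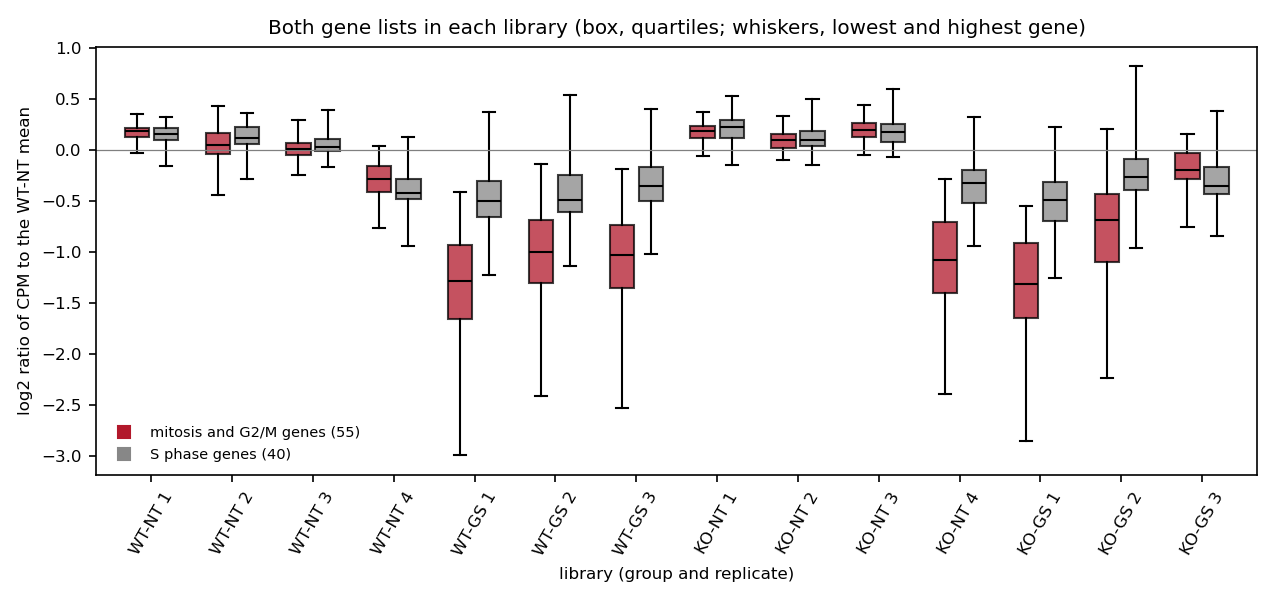
Log2 ratio of CPM to the WT-NT mean over the 55 mitosis and G2/M genes (red) and 40 S phase genes (grey) in each library, with boxes for quartiles, a line for the median and whiskers to the lowest and highest gene. WT-NT 4 and the library labelled KO-GS 3 have S phase medians of -0.42 and -0.35, near those of the starved libraries, with mitotic medians of -0.28 and -0.20.

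Summed fibroblast markers did not overlap between media in wild type, while the sums of the other cell types did. The summed level of 13 fibroblast markers was 47336 to 55412 CPM in WT-NT and 27334 to 30139 CPM in WT-GS, and 7 of the 13 were called lower. The summed level of 15 macrophage markers was 328 to 2136 CPM in WT-NT and 14.2 to 389.9 CPM in WT-GS, with 3 of 15 called lower and none of the 15 at 0 in every library of a group. In SirT7-/- cells the macrophage sums overlapped as well, at 438 to 788 CPM in KO-NT and 123 to 1133 CPM in KO-GS. Skeletal muscle markers summed to 81.3 to 140.5 CPM in WT-NT and 97.6 to 250.6 CPM in WT-GS, with Ckm at 0 in every library of both. Of the 12 muscle markers, 8 were tested, and 7 of these had negative changes: Tnni2 and Tmem8c were called lower, the latter at 0 in every WT-GS library, and Acta1 was called higher. Endothelial and epithelial markers summed to 22.7 CPM or less in each library, with 0 of 6 tested endothelial markers called and, of 6 tested epithelial markers, Cdh1 called lower and Krt14 higher. Their part in the change of the mitotic genes was not tested.

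The responses of the 2 genotypes were set side by side for the 55 genes. As labelled, Pearson's r between the wild-type and SirT7-/- log2 changes was 0.802 and Spearman's rho 0.725 across the 55 genes, which are not independent and share a fit. Without both libraries r was 0.974 and rho 0.963, and the SirT7-/- change minus the wild-type change lay between -0.24 and 0.19 for each gene. In that fit 49 genes were called lower in both genotypes. Of all genes, 19.1% were called lower in wild type and 14.5% in SirT7-/- cells, and the share lower in both was not counted. The libraries left out had been singled out by these same genes, so the closer match is not independent support for like responses. The genes not called in SirT7-/- cells in that fit were Sgol1, Spc25, Ect2 and Anln, and those not called in wild type were Spc24, Mybl2 and Anln. The difference in response itself was called for 0 of the 55 genes, against 0% of all genes, with 0 at an unadjusted p under 0.05 by edgeR and 0 called by DESeq2. Its median was 0.50 as labelled, with 53 of 55 positive, and -0.01 without both libraries, with 23 positive. The 95% intervals (1.96 SE to either side) reached from -0.84 to 2.80 over the 55 genes as labelled and from -0.89 to 0.79 without both libraries, and each held 0. The largest differences as labelled were in Kif20a (1.16, SE 0.75) and Plk1 (1.13, SE 0.85), the lowest in Mybl2 (-0.20, SE 0.33) and Spc24 (-0.05, SE 0.30). Without both libraries Kif20a stood at -0.09 and Plk1 at -0.20. With those gone, the sign rested on the remaining starved SirT7-/- libraries: 50 of 55 differences were positive without KO-GS 1 and 1 without KO-GS 2.

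**Figure D5:**
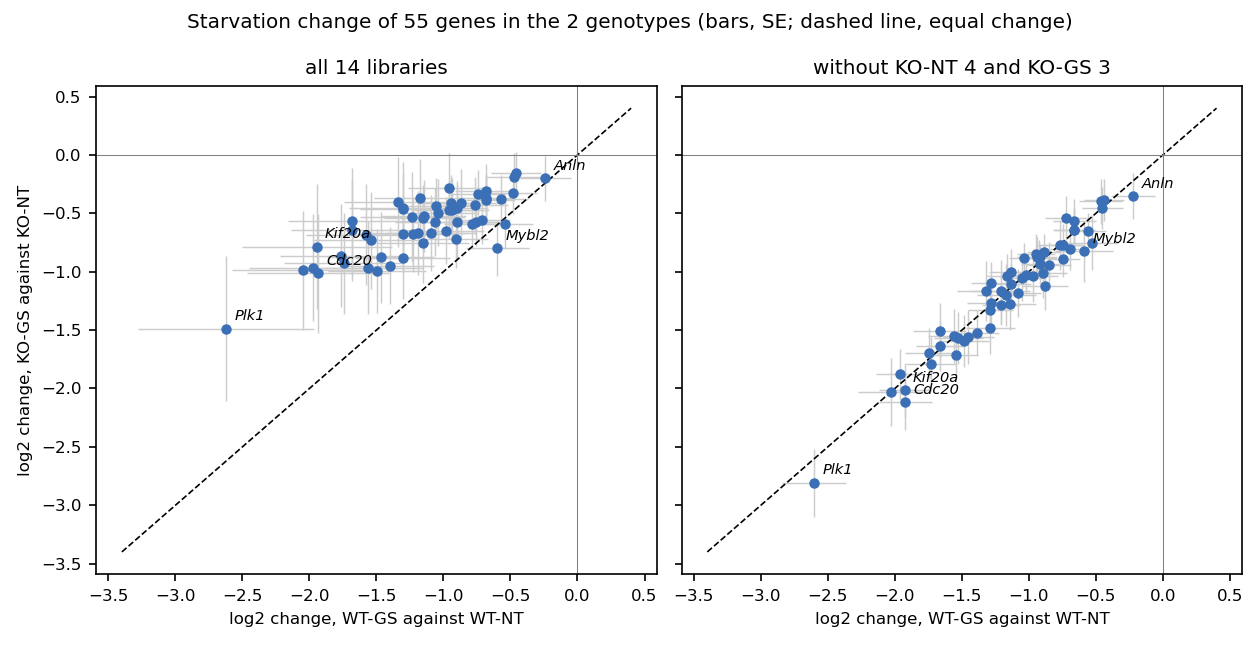
Log2 change of each of the 55 genes on starvation in wild type (horizontal) and in SirT7-/- cells (vertical), with SE bars and a dashed line of equal change, for all 14 libraries (left) and without the libraries labelled KO-GS 3 and KO-NT 4 (right). Pearson's r is 0.802 on the left, where most points lie above the line, and 0.974 on the right, where they follow it.

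SirT7 loss in normal medium changed none of the 55 genes past the threshold. In KO-NT against WT-NT 0 were called, against 0.00638% of all genes, 0 had an unadjusted p under 0.05, and DESeq2 also called 0 of the 55. Log2 differences ran from -0.28 for Aurka (SE 0.40) and -0.23 for Nusap1 to 0.19 for Spc24 and 0.22 for Mybl2 (SE 0.21), and their median was -0.06, with 43 negative. Without the libraries labelled KO-GS 3 and KO-NT 4 the median was 0.14 and 52 were positive. Leaving out the library labelled KO-NT 4 alone, which is the one of the pair in this comparison, gave 53 positive. The fit without both libraries called 0 of the 55, against 0.0252% of all genes, with 1 gene at an unadjusted p under 0.05, Cdc25b.

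Without glucose, SirT7-/- libraries as labelled had higher levels than wild type for all 55 genes, but 0 were called, against 0.00638% of all genes, and DESeq2 called 0 of the 55. The median log2 difference was 0.45, from 0.02 for Mybl2 and 0.03 for Sgol1 to 1.02 for Kif20a (SE 0.57) and 1.12 for Plk1 (SE 0.65). Without both libraries the median was 0.11, with 53 of 55 positive, 0 called, against 0.0063% of all genes, and 1 at an unadjusted p under 0.05. That direction turned with KO-GS 2, since leaving it out as well gave 1 of 55 positive and a median of -0.22, while leaving out KO-GS 1 gave 55 positive and a median of 0.37. Leaving out both libraries and WT-GS 1 gave 35 positive and a median of 0.024. In both fits the gene at an unadjusted p under 0.05 was Cdc25b, at 0.67 (SE 0.26, adjusted p = 0.893) as labelled and 0.39 (SE 0.12, adjusted p = 1) without both libraries. It was the gene of the 55 whose KO-GS libraries all lay above the WT-GS libraries, against 5.02% of all genes. KO-GS 1 and 2 also differed from each other: in KO-GS 2 all 55 genes lay above the highest WT-GS library, in KO-GS 1 it was 1 gene.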

How the data were processed

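RNA of 14 fibroblast libraries (TruSeq RNA v2 kit, per the labels' protocols) was analysed from the authors' deposited table of estimated counts, whole numbers for 24015 symbols. Per the submitters' processing notes, FastQC 0.11.3, Trimmomatic 0.36, HISAT2 2.1.0, SAMtools, StringTie 1.3.3 and DESeq2 1.18.1 were used on build mm9. Annotation, read length and strand setting are not given in the sources used here, so reads of overlapping or antisense genes cannot be told apart. In 27 rows a date stands in place of a symbol.

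Counts were fitted with edgeR 4.0.16 (R 4.3.3): TMM factors (0.968 to 1.03), filterByExpr (minimum count 10, total 15), 1 mean per group, robust quasi-likelihood F-test, Benjamini-Hochberg adjustment over 15666 genes, called under 0.05. SE is worked back from the F-test and shares the spread of all libraries. Members, lists and the named genes (all members, with library values for 24 chosen by role, and the largest and any few called genes of each list) were chosen with earlier results of these data known. Alternatives were DESeq2 1.42.0, RLE factors, library size alone, no filter, only the groups compared, a replicate block and leaving out libraries.

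Intervals cover the spread between libraries. In the library of lowest depth, 0 counts allow a level of up to 0.0504 CPM (3 counts), for counting error only.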

Additional observations from a re-analysis of the deposited data

Results flagged for a closer look

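In the KO-NT group 36 of the 55 genes had a lowest library whose gap to the next, divided by the range of the 4 libraries, passed Dixon's 95% critical value, and in each case it was the library labelled KO-NT 4. Chance flags about 1 in 20 groups, but the 55 genes share the same 4 libraries, so their flags are not independent and cannot be set against that rate. The library had already been singled out by these genes, and the share flagged over all genes was not counted. In WT-NT 1 of 55 genes was flagged, Ccnf, for a high value of 41.97 CPM in WT-NT 1. The median log2 ratio of the 55 genes to their WT-NT mean was flagged in the library labelled KO-NT 4 as well, at -1.07. Among kinases, cyclins and phosphatases this library read Ccna2 at 42.5 CPM, Ccnb1 at 31.3 CPM, Ccnb2 at 17.4 CPM, Ccnf at 16.3 CPM, Plk1 at 8.91 CPM, Aurka at 14.3 CPM, Nek2 at 19.9 CPM, Cdc25b at 21.9 CPM and Cdc25c at 5.26 CPM. Among checkpoint, anaphase and kinetochore genes it read Bub1b at 18.6 CPM, Ttk at 13.3 CPM, Cdc20 at 17.4 CPM, Pttg1 at 6.28 CPM, Sgol1 at 16.03 CPM, Cenpa at 8.77 CPM, Cenpe at 31.5 CPM, Cenpf at 20.5 CPM and Nuf2 at 17.4 CPM. Passenger complex and spindle genes read Aurkb at 23.2 CPM, Birc5 at 25.003 CPM, Incenp at 32.04 CPM, Cdca8 at 16.04 CPM, Kif2c at 12.9 CPM, Kif4 at 19.1 CPM, Kif11 at 26.996 CPM, Kif22 at 15.1 CPM, Tpx2 at 65.3 CPM, Hmmr at 27.03 CPM and Aspm at 18.4 CPM. Cytokinesis and other genes read Kif20a at 25.6 CPM, Kif20b at 22.02 CPM, Kif23 at 21.1 CPM, Racgap1 at 45.8 CPM, Mki67 at 125 CPM, Foxm1 at 56.2 CPM and Cdca3 at 14.5 CPM. Groups of 3, KO-GS with the library labelled KO-GS 3 among them, were not tested this way. The cause was not tested.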

How the results depend on the processing

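The number of genes called lower in wild type was 46 with RLE factors, 50 with library size alone, 45 with no filter, 51 with only the groups compared, 51 with DESeq2 and 52 without the libraries labelled KO-GS 3 and KO-NT 4. Leaving out each library of all 14 gave 0 to 54, within the wild-type libraries alone 46 to 54, and without both libraries and 1 more 49 to 53. A lone library left in a group is assumed to vary like the others. In SirT7-/- cells the count was 0 under all settings but these: 19 with a replicate block, 51 without both libraries, 0 to 37 with each library left out, and 40 to 52 without both and 1 more. The counts for both genotype comparisons and for the difference in response were 0 throughout. Library size alone moved all genes called in wild type from 2014 higher and 2049 lower to 1496 higher and 2492 lower, and all medians over genes moved by under 0.1 on the log2 scale; DESeq2 called 5624 genes and the fit without both libraries 6280.

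Correlations of deviations from group means were -0.172 to 0.511 (median 0.115) for same-numbered libraries and -0.664 to 0.568 (median -0.0739) for different-numbered ones. In 17 of 38 checks a library correlated best with its own number. These values did not settle pairing, which the labels do not state, so the numbers were not taken as pairs. With a replicate block 54 of the 55 genes were called in wild type and 19 in SirT7-/- cells, among 6633 and 3096 of all genes, and 0 in the other comparisons.

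Of the log2 changes named with a test, over these settings and each library left out, 391 wild-type values kept direction and side of the threshold, 108 lost the call and 26 gained it. In SirT7-/- cells 496 kept both, 48 gained a call and 2 changed sign, Ect2 (range -0.89 to 0.028 over libraries left out) and Spc25 (-0.81 to 0.056). In normal medium Aurka ranged from -0.42 to 0.081 and Nusap1 from -0.36 to 0.037. Without glucose Mybl2 ranged from -0.10 to 0.23, Sgol1 from -0.13 to 0.17, Kif20a from -0.42 to 1.39 and Plk1 from -0.24 to 1.48. The difference in response ranged from -0.41 to 0.094 for Spc24 (0.019 with library size alone), from -0.56 to 1.504 for Plk1 and from -0.59 to 1.54 for Kif20a, and without both libraries it was -0.20 for Plk1 and -0.086 for Kif20a. The causes were not tested.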
